A study of Mus musculus with 2 samples.

Results

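Lysosomal enzymes and membrane proteins were followed here as a module of 37 genes in spatial transcriptomes of mouse liver. The members were taken by symbol from a written list, and each symbol matched exactly 1 of the 32285 genes in the count tables. They comprise 12 proteases, 7 glycosidases, 5 genes of lipid and sphingolipid handling, 7 membrane proteins, 5 subunits of the proton pump and progranulin (Grn). All 37 had at least 1 unique molecular identifier (UMI, 1 counted mRNA molecule) in both sections.

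The study fed male C57BL/6J mice, 5 weeks old at arrival and given 1 week to acclimate, either a normal chow diet (NCD) or a high-fat diet (HFD) with 60% of its energy from fat. Induction took 14 weeks, and mice of both groups then received distilled water by mouth for 8 weeks as the arms without drug of a treatment experiment. After perfusion of the liver, 1 fresh-frozen section of 10 µm per diet was placed on a 10x Visium slide, whose spots are small regions that each capture mRNA from several cells. Each diet is thus represented by 1 section, so no difference below could be tested, and diet, animal, section and slide cannot be told apart.

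Lysosomes are acidic organelles in which hydrolases break down proteins, glycans and lipids that arrive by endocytosis, phagocytosis and autophagy. A vacuolar-type ATPase pumps protons into the lumen, heavily glycosylated membrane proteins line the inner face of the organelle, and many of the genes share a short promoter element bound by TFEB and related factors. In the liver, hepatocytes carry many lysosomes, Kupffer cells and other macrophages are rich in them, and the macrophages that collect lipid in a fatty liver express Gpnmb, a glycoprotein of late endosomes and lysosomes.

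The NCD section held 3692 spots over tissue with 29037988 UMIs in all and a median of 4187.5 per spot, and the HFD section held 3594 spots with 72118803 UMIs and a median of 18549. NCD and HFD stand for these 2 sections from here on. Levels are UMI counts pooled over all spots of a section or group and scaled to a common total (CPM). Their 95% intervals are exact Poisson intervals for a level and exact conditional binomial intervals for a log2 ratio, and both cover counting error only. A pooled level cannot separate fewer cells of a type from less RNA per cell. The sample labels name a hematopoietic cell line and immune cells, whereas the hepatocyte genes Alb, Apoa1, Ttr, Trf, Fgb and Pck1 summed to 85417 CPM in NCD and 97620.1 CPM in HFD. Kit, Cd34, Procr and Mecom, 4 markers of hematopoietic stem cells, summed to 6.10 and 8.60 CPM, and the leukocyte gene Ptprc stood at 6.61 and 10.7 CPM, so both sections carried the markers of whole liver.

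Most lysosomal genes had a higher level in HFD than in NCD. Summed over the 37 members, the level was 4655 CPM (95% interval 4630.1 to 4679.7) in NCD and 6767 CPM (6748 to 6786) in HFD, a log2 ratio of 0.54 (0.53 to 0.55). At least 1.5-fold higher in HFD were 21 of the 37 members, all of which passed the minimum of 200 UMIs over the 2 sections, against 23.9% of the 10665 genes that passed it. None of the 37 was 1.5-fold lower, against 4.56% of all genes. The median log2 ratio of the members was 0.71, and that of all genes tested was 0.23. Relative to this shift of 0.23, 15 members were still at least 1.5-fold higher and 0 lower, against 13.8% and 9.47% of all genes under the same centring, and the median member ratio was 0.48. The counting interval lay above 0 for 33 members, below 0 for 1 and across 0 for 3. No share of all genes with such intervals is given, so these counts do not set the members apart from other genes.

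Among the proteases, the endosomal and lysosomal peptidases known as cathepsins and their relatives, 8 of 12 were at least 1.5-fold higher in HFD. The share of all genes was 23.9%, and the median log2 ratio of the proteases was 0.85. Ctss, the cysteine protease that trims the invariant chain in antigen-presenting cells, stood at 40.0 CPM (37.7 to 42.3) in NCD and 99.4 CPM (97.1 to 102) in HFD, a log2 ratio of 1.31 (1.22 to 1.40). Ctsb, a broadly expressed cysteine protease, was measured at 462 and 859 CPM, a ratio of 0.90 (0.87 to 0.92). The aspartic protease Ctsd had 244 CPM in NCD and 456 CPM in HFD, also a ratio of 0.90 (0.87 to 0.94). These 3 genes had section intervals far apart, and the higher value was in HFD each time. The carboxypeptidase Ctsz went from 172 to 348 CPM (ratio 1.01, 0.97 to 1.06), and Lgmn, which cuts after asparagine and activates other cathepsins, from 58.6 to 109.8 CPM (0.90, 0.83 to 0.98). Ctsa, a carboxypeptidase that also shields beta-galactosidase and neuraminidase, had 96.1 and 168 CPM (0.80, 0.74 to 0.86), and the tripeptidyl peptidase Tpp1 had 46.8 and 80.0 CPM (0.77, 0.69 to 0.86). Ctsk, the collagen-degrading protease of osteoclasts, rested on 32 UMIs in NCD and 182 in HFD, or 1.10 and 2.52 CPM, so its ratio of 1.20 had a wide interval of 0.65 to 1.79.

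The other 4 proteases were less than 1.5-fold apart. Ctsl, an abundant endopeptidase, stood at 798 CPM (788 to 808) in NCD and 781 CPM (775 to 788) in HFD, a log2 ratio of -0.03 (-0.05 to -0.01) that becomes -0.27 relative to all genes. Ctsh, an aminopeptidase, had 259.9 and 254 CPM (-0.03, -0.07 to 0.01), and Ctsf, another cysteine protease, had 26.6 and 24.8 CPM (-0.10, -0.22 to 0.02). Both intervals hold 0, but the ratio of Ctsf depends on the treatment of background, since it was 0.75 after the level off tissue had been subtracted. Ctsc, the dipeptidyl peptidase that activates serine proteases of myeloid granules, was between, with 64.2 and 78.2 CPM and a ratio of 0.28 (0.21 to 0.36), close to the median of all genes.

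All 7 glycosidases had intervals above 0, but those of Glb1 and Naglu hold the shift of 0.23 over all genes. No share of all genes with intervals above 0 is given. Past 1.5-fold were 3 of the 7, against 23.9% of all genes, and the median log2 ratio was 0.55. Hexa, the alpha subunit of beta-hexosaminidase that degrades GM2 ganglioside, stood apart with 40.9 CPM (38.6 to 43.3) in NCD and 99.6 CPM (97.3 to 101.9) in HFD, a ratio of 1.28 (1.19 to 1.37). Gusb, beta-glucuronidase, had 24.3 and 39.8 CPM (0.71, 0.59 to 0.83). Gla, alpha-galactosidase A, had only 50 UMIs in NCD and 239 in HFD, or 1.72 and 3.31 CPM, and its ratio of 0.94 had an interval of 0.50 to 1.41. At a common depth of 1000 UMIs per spot the ratio of Gla was -0.11, where few of its UMIs were left. The alpha-mannosidase Man2b1 had 61.4 and 90.0 CPM (0.55, 0.48 to 0.63), and the sialidase Neu1 had 29.3 and 42.2 CPM (0.52, 0.41 to 0.64). Glb1, beta-galactosidase, shares its strand with the overlapping gene Tmppe, so that the 2 cannot be fully separated, and had 8.61 and 11.0 CPM (0.35, 0.14 to 0.56). Naglu, which removes N-acetylglucosamine ends from heparan sulfate, had 20.8 and 25.2 CPM (0.28, 0.14 to 0.41).

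In lipid and sphingolipid handling the difference was largest for the soluble cofactors. Psap, the precursor of the saposins that help hydrolases reach sphingolipids, stood at 397 CPM (390.2 to 405) in NCD and 709 CPM (703 to 716) in HFD, a log2 ratio of 0.84 (0.81 to 0.86). Npc2, which binds cholesterol in the lumen, had 72.5 and 124 CPM (0.78, 0.71 to 0.85). Npc1, the membrane protein that takes over cholesterol from Npc2, had 50.2 and 48.8 CPM, a ratio of -0.04 whose interval of -0.13 to 0.05 holds 0 and lies below the ratio of Npc2. Lipa, the acid lipase that hydrolyses cholesteryl esters and triglycerides, had 136 and 189 CPM (0.48, 0.43 to 0.53), and the ceramidase Asah1 had 27.4 and 38.0 CPM (0.47, 0.36 to 0.59). So 2 of the 5 were past 1.5-fold, against 23.9% of all genes, and the median was 0.48.

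The membrane proteins divided into a group with large ratios and a group near 0. Cd68, the heavily glycosylated protein used to stain macrophages, had 9.37 CPM (8.29 to 10.5) in NCD and 25.8 CPM (24.6 to 27.0) in HFD, and its log2 ratio of 1.46 (1.28 to 1.65) was the highest of the 37 members. Laptm5, a transmembrane protein of leukocyte lysosomes, had 15.7 and 34.2 CPM (1.12, 0.97 to 1.27). Cln3, mutated in juvenile Batten disease, had 6.58 and 12.6 CPM (0.94, 0.71 to 1.17). Lamp1 and Lamp2, the main glycoproteins of the lysosomal membrane, parted here. Lamp1 stood at 346 CPM (339 to 353) in NCD and 669 CPM (663 to 675) in HFD, a ratio of 0.95 (0.92 to 0.98). Lamp2, which also takes part in chaperone-mediated autophagy, had 481 and 505 CPM, a ratio of 0.07 (0.04 to 0.10) that turns to -0.16 relative to all genes. Scarb2, the receptor that carries glucocerebrosidase to lysosomes, had 113 and 120.0 CPM, and its ratio of 0.09 (0.03 to 0.15) likewise turns to -0.15. The calcium channel Mcoln1 had 11.2 and 13.1 CPM, and its ratio of 0.22 (0.04 to 0.41) turns to -0.01. In all, 4 of the 7 were past 1.5-fold, against 23.9% of all genes, and the median was 0.94.

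Of the proton pump subunits, 4 of 5 were past 1.5-fold, against 23.9% of all genes, with a median log2 ratio of 0.70. Atp6v1b2 and Atp6v1a belong to the ring that hydrolyses ATP. Atp6v1b2 had 16.9 and 34.0 CPM (1.00, 0.86 to 1.15), and Atp6v1a had 25.5 and 41.5 CPM (0.70, 0.59 to 0.82). Atp6v0c, which forms most of the proton-carrying ring in the membrane, had 182 CPM (177 to 187) in NCD and 289.8 CPM (286 to 294) in HFD (0.67, 0.63 to 0.72). The d subunit that links the 2 rings exists in a widespread form, Atp6v0d1, and a form of osteoclasts and macrophages, Atp6v0d2. Atp6v0d1 had 73.0 and 95.3 CPM (0.38, 0.31 to 0.45), while Atp6v0d2 had 2.62 and 4.98 CPM on 76 and 359 UMIs (0.93, lower bound 0.57). Grn, the secreted precursor of the granulins that act in lysosomes, had 233 and 240.3 CPM, a ratio of 0.04 (0.00 to 0.09) that turns to -0.19 relative to all genes.

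**Figure D1:**
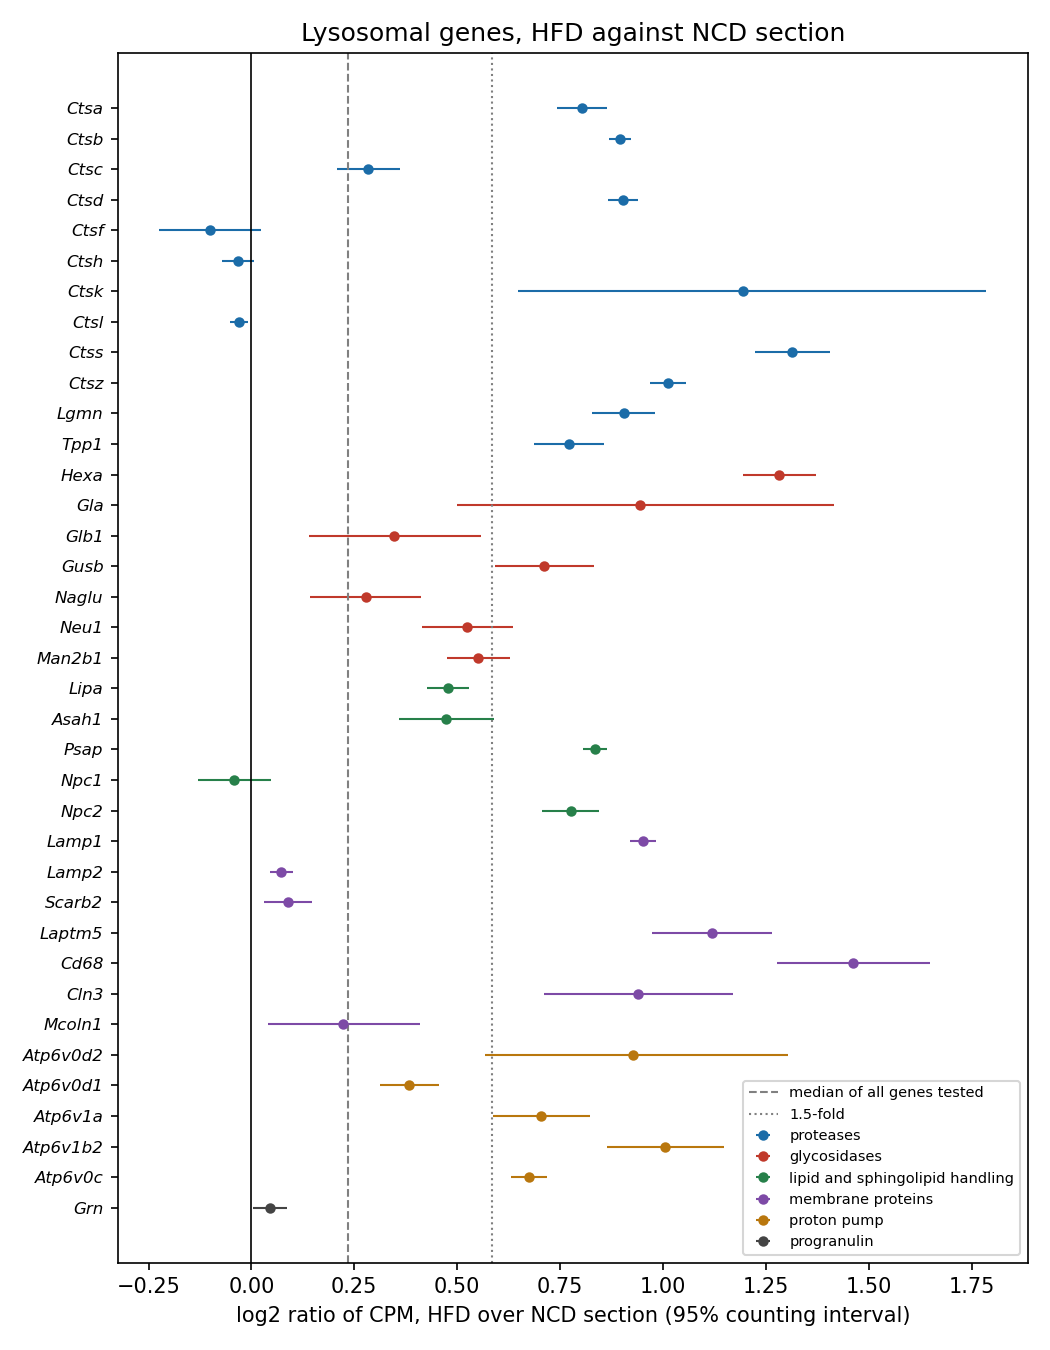
Log2 ratio of CPM (x axis) of each of the 37 lysosomal genes, HFD over NCD section, with 1 section per diet. Points are ratios coloured by role, bars are 95% counting intervals, the solid line marks 0, the dashed line the median of all genes tested (0.23) and the dotted line 1.5-fold, and 21 points lie past the dotted line, with Ctsl, Ctsh, Ctsf and Npc1 below 0 and Lamp2, Scarb2, Grn and Mcoln1 between 0 and the dashed line, where centring on all genes turns their direction.

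A second list of 59 lysosomal genes outside the module, among them further hydrolases, pump subunits, sorting receptors and the MiT/TFE factors, gave a lower median. Past 1.5-fold were 21 of 59 in the higher direction, against 23.9% of all genes, and 1 in the lower direction, against 4.56%, and the median log2 ratio was 0.47, beside 0.23 for all genes. The 3 with the highest ratios were Cd63, a tetraspanin of late endosomes, with 11.1 and 49.7 CPM (2.16), the arylsulfatase Arsa with 14.3 and 44.6 CPM (1.64) and the sulfatase Galns with 2.82 and 6.23 CPM (1.14). At the low end were Sort1, the sorting receptor sortilin, with 8.54 and 4.35 CPM (-0.97) and the pump subunit Atp6v1g1 with 103.6 and 92.7 CPM (-0.16).

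The sections differed in depth, so detection per spot was compared after each spot with at least 1000 UMIs was drawn down to 1000, which left out 840 NCD spots and 4 HFD spots. Ctsb was then found in 37.6% (35.8 to 39.4) of 2852 NCD spots and 57.3% (55.7 to 59.0) of 3590 HFD spots, against 69.7% and 99.3% before drawing down. Lamp1 was found in 28.8% and 47.4% of spots, where the values before were 64.8% and 99.2%. For Ctsl the shares were 52.9% (51.1 to 54.8) and 53.3% (51.6 to 54.9), although they had been 77.1% and 99.2% before, and another random draw gave 54.1% (52.2 to 55.9) and 51.5% (49.9 to 53.2). The shares of Cd68 were 0.842% (0.540 to 1.25) and 2.14% (1.70 to 2.67), and those of Ctss 4.38% and 10.1%. With exact Clopper-Pearson intervals, 19 of the 37 members had a higher share in HFD with no overlap, against 12.9% of all genes, 0 had a lower one, against 5.96%, and 18 overlapped. At a depth of 3000 UMIs, 24 members were higher with no overlap, against 23.9% of all genes, and 1 was lower, against 8.34%. The lower one was Ctsl, found in 90.9% (89.6 to 92.1) of NCD spots and 88.1% (87.0 to 89.1) of HFD spots.

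Genes that mark cell types also differed between the sections, and their part in the lysosomal ratios was not tested. All 7 markers of lipid-associated macrophages were higher in HFD, with a summed level of 93.1 CPM in NCD and 327 CPM in HFD (log2 ratio 1.81) and Spp1 as the most abundant. Gpnmb itself had 0.895 and 20.3 CPM on 26 and 1462 UMIs. Kupffer cell markers summed to 205 and 207 CPM (0.02), with 2 of 6 higher and Cd5l the most abundant, but they did not move together: Timd4 had 7.89 and 0.874 CPM and Marco 14.1 and 1.54 CPM, while Cd5l had 81.8 and 116 CPM. All 5 monocyte markers were higher, with sums of 4.13 and 10.5 CPM (1.34), led by Ly6c2 in NCD and by Ccr2 in HFD. Markers of lipid-associated macrophages and of monocytes were thus higher in HFD. Stellate cell and fibroblast markers summed to 197 and 467 CPM (1.24, 5 of 5 higher, Dcn most abundant), bile duct markers to 3.86 and 8.87 CPM (1.20, 3 of 3 higher, Epcam) and endothelial markers to 143 and 198 CPM (0.47, 4 of 5 higher, Clec4g). Red blood cell genes were lower, with 4949 and 954 CPM (-2.37, 0 of 3 higher, Hbb-bs), as were those of B and plasma cells with 42.6 and 11.2 CPM (-1.93, 0 of 4, Ighm), T cells with 8.16 and 5.77 CPM (-0.50, 0 of 3, Cd3g) and neutrophils with 15.5 and 11.6 CPM (-0.41, 1 of 3, with S100a9 most abundant in NCD and S100a8 in HFD). Hepatocyte genes had a ratio of 0.19 (5 of 6 higher, Alb), the stem cell markers 0.50 (2 of 4 higher, with Kit most abundant in NCD and Cd34 in HFD) and Ptprc 0.69. Pericentral hepatocyte genes stood at 10981 and 6268 CPM (-0.81, 1 of 7, Cyp2e1), and periportal ones at 6869 and 5226 CPM (-0.39, 3 of 8, Ass1). No marker was at 0 in either section.

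The comparison of the sections was repeated with HFD spots that lacked macrophage genes, while all NCD spots were kept. In the 2681 HFD spots without a Gpnmb UMI the members summed to 6563 CPM (6540.0 to 6585), against 4655 CPM in NCD, a log2 ratio of 0.50 (0.49 to 0.50). At least 1.5-fold higher were 20 of the 36 members that passed the minimum, against 21.6% of all genes, and 0 were lower, against 4.38%. The median member ratio was 0.66 beside a median of 0.21 for all genes. Ctss kept a ratio of 1.14, Cd68 of 1.23, Lamp1 of 0.92 and Ctsb of 0.84.

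A stricter group consisted of the 373 HFD spots with no UMI of any of 6 macrophage genes (Gpnmb, Trem2, Mmp12, Clec4f, Cd5l and Adgre1). These spots were shallower than the section, with a median of 9804 UMIs, and a spot without such a UMI can still hold macrophages. Here 14 of the 34 members that passed were at least 1.5-fold higher than in NCD, against 14.9% of all genes, and the median ratio was 0.44 beside 0.10 for all genes. Some genes stayed well above their NCD levels. Lamp1 had 605 CPM against 346 CPM (0.81, 0.74 to 0.87), Ctsz had 321 against 172 CPM (0.90, 0.81 to 0.98), and Ctsb had 729.9 against 462 CPM (0.66, 0.61 to 0.72). Others that had differed little between the sections were close to NCD here too, with Lamp2 at 498 against 481 CPM (0.05, -0.01 to 0.12), Scarb2 at 113 against 113 CPM (0.01, -0.13 to 0.14) and Ctsl at 768 against 798 CPM (-0.05, -0.11 to -0.00). Most ratios were smaller than in the whole section, among them Ctss at 57.7 against 40.0 CPM (0.53, 0.33 to 0.72) and Cd68 at 19.0 against 9.37 CPM (1.02, 0.65 to 1.38), which was still the highest ratio of the members that passed. The progranulin gene Grn was below its NCD level, with 200.1 against 233 CPM (-0.22, -0.32 to -0.12).

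Within the HFD section, the level in spots with a Gpnmb UMI was compared with that in spots without one, since Gpnmb marks lipid-laden macrophages. The 913 spots with Gpnmb had a median of 23378 UMIs, and the 2681 without had 16984. Lysosomal genes were slightly higher as a whole in the spots with Gpnmb, with a summed level of 7218 CPM (7183 to 7254) against 6563 CPM (6540.0 to 6585), a log2 ratio of 0.14 (0.13 to 0.15). Past 1.5-fold in the higher direction were 2 of the 36 members that passed the minimum, against 0.607% of 10054 genes, and 0 in the lower direction, against 0.0796%. Their median log2 ratio was 0.13, beside 0.03 for all genes. Of their intervals, 25 lay above 0 and 0 below, without a share of all genes to compare. The 2 members were Cd68, with 34.0 CPM (31.7 to 36.5) in spots with Gpnmb and 22.0 CPM (20.8 to 23.4) in spots without (0.63, 0.49 to 0.76), and Atp6v0d2, with 6.57 CPM (5.55 to 7.72) and 4.26 CPM (3.70 to 4.87) (0.63, 0.31 to 0.94). Without the 1% of spots richest in Gpnmb the ratios became 0.52 for Cd68 and 0.39 for Atp6v0d2, so that 0 members were past 1.5-fold. With every spot drawn down to 3000 UMIs the ratio of Atp6v0d2 was -0.02 and that of Cd68 was 0.97, while weighting over 5 strata of depth gave 0.73 and 0.68.

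The ratios of other members were smaller. Ctss had 124 CPM with Gpnmb and 88.1 CPM without (0.50, 0.43 to 0.56), Laptm5 had 41.3 and 30.9 CPM (0.42, 0.30 to 0.53), and Lgmn had 128 and 101.6 CPM (0.33, 0.26 to 0.40). Ctsk did not pass the minimum with 182 UMIs, and had 3.42 and 2.12 CPM (0.69, 0.25 to 1.13). Gla had 3.86 and 3.07 CPM (0.33, -0.06 to 0.72), with an interval that holds 0, and the membrane protein Cln3 had 14.5 and 11.8 CPM (0.30, 0.10 to 0.50). Soluble cofactors and hydrolases had ratios in the same range or below. Npc2 had 143 and 116 CPM (0.31, 0.24 to 0.37), Psap had 792 and 672 CPM (0.24, 0.21 to 0.26), and Ctsd had 510.4 and 432 CPM (0.24, 0.21 to 0.27). Lamp2 had 502 and 507 CPM (-0.01, -0.05 to 0.02), Ctsh 252 and 255 CPM (-0.02, -0.06 to 0.03), Ctsc 78.3 and 78.2 CPM (0.00, -0.08 to 0.08) and Lipa 192 and 188 CPM (0.03, -0.02 to 0.08). These 4 intervals hold 0, so the genes differed no more than their counts allow between the groups of spots. By role, the median ratios were 0.12 for proteases, 0.12 for glycosidases, 0.23 for lipid handling, 0.21 for membrane proteins, 0.12 for the pump and 0.14 for Grn. In the list of other lysosomal genes 1 of 58 was past 1.5-fold, Cd63 with 67.6 and 41.6 CPM (0.70), and the median was 0.09. Sort1 (0.48, 5.41 and 3.87 CPM) and Galc (0.43, 5.68 and 4.21 CPM) came next, and Clcn7 (-0.14, 20.8 and 23.0 CPM), Ctns (-0.11, 10.2 and 10.9 CPM) and Mfsd8 (-0.07, 7.54 and 7.95 CPM) were at the low end.

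Spots were also grouped by how many Gpnmb UMIs they held, a grouping chosen after the counts had been seen. There were 632 spots with 1 UMI, 223 with 2 to 3 and 58 with 4 or more, and their median depths of 21666.5, 25785 and 28556.5 UMIs climbed with the grouping. Cd68 stood at 22.0 CPM in spots without Gpnmb, at 27.1 CPM with 1 UMI, at 37.1 CPM with 2 to 3 and at 82.5 CPM (69.5 to 97.4) with 4 or more. Over the same groups Ctss had 88.1, 104 and 127 CPM and then 285 CPM (260.3 to 312). Lgmn went from 101.6 over 109.98 and 139.6 to 237 CPM (214 to 261). For each of these 3 genes the last group stood apart from the one before it by more than the counting intervals.

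In spots with 4 or more Gpnmb UMIs, 11 of the 35 members that passed the minimum were at least 1.5-fold above spots without Gpnmb, against 8.9% of all genes, and the median log2 ratio was 0.43, beside 0.05 for all genes. They included Cd68 (1.90, 1.64 to 2.16), Ctss (1.69, 1.56 to 1.83), Laptm5 with 82.0 against 30.9 CPM (1.41, 1.15 to 1.66) and Lgmn (1.22, 1.07 to 1.36). The macrophage form of the pump subunit, Atp6v0d2, had 22.8 CPM on 39 UMIs against 4.26 CPM (2.42, 1.89 to 2.92). Ctsd had 867 against 432 CPM (1.01, 0.93 to 1.08), Psap 1296 against 672 CPM (0.95, 0.88 to 1.01) and Npc2 218 against 116 CPM (0.91, 0.76 to 1.07). The widely expressed Lamp2 had 539 against 507 CPM (0.09, -0.01 to 0.18) and Scarb2 122 against 118 CPM (0.05, -0.16 to 0.25), and both intervals hold 0. Grn, with a ratio of only 0.04 between the diets, had 332 against 233 CPM here (0.51, 0.39 to 0.63). These spots are 58 regions of 1 section, and their number limits what the values show.

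**Figure D2:**
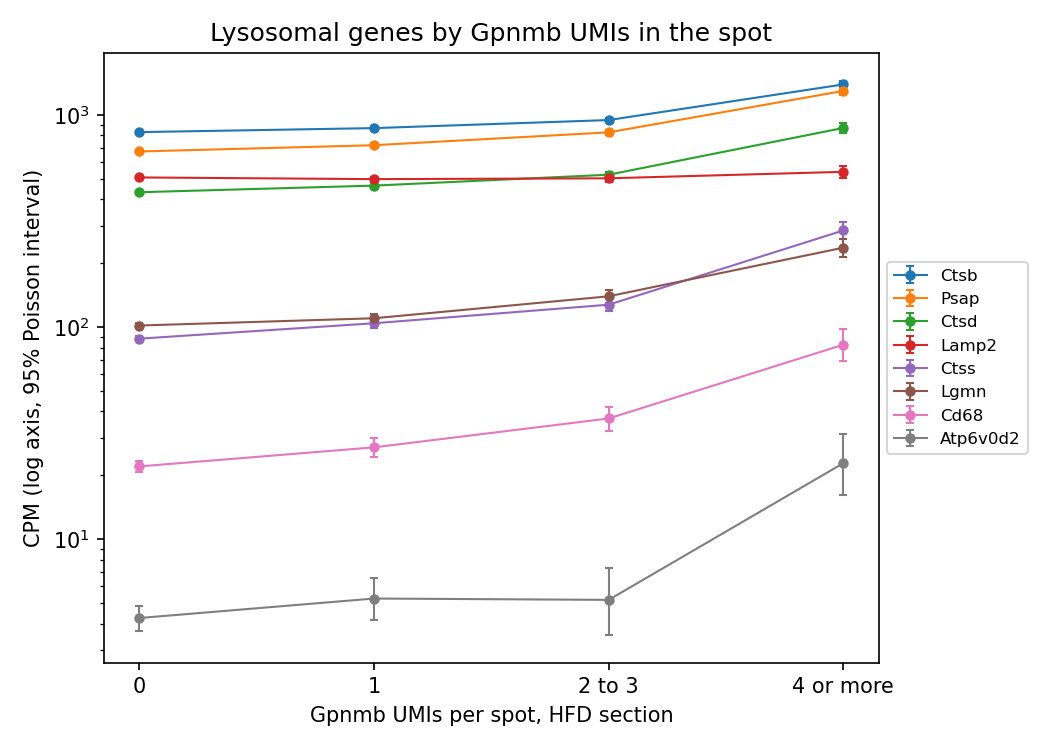
Level of 8 lysosomal genes in CPM (y axis, log scale) in HFD spots with 0, 1, 2 to 3, and 4 or more Gpnmb UMIs (x axis). Points are pooled levels and bars 95% Poisson intervals, and Cd68 goes from 22.0 to 82.5 CPM and Ctss from 88.1 to 285 CPM, while Lamp2 stays between 498 and 539 CPM.

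Other genes moved with Gpnmb over the spots of HFD, and their part in these ratios was not tested. The other 6 markers of lipid-associated macrophages were all higher in spots with Gpnmb, with 408 CPM against 259.97 CPM (log2 ratio 0.65) and Spp1 as the most abundant. Monocyte markers (5 of 5 higher, 12.7 against 9.42 CPM, Ccr2 and Ly6c2 leading) and Ptprc (13.6 against 9.34 CPM) were higher as well, whereas the Kupffer markers were 2 of 6 higher with 216 against 203 CPM (0.09, Cd5l leading). Bile duct markers were 3 of 3 higher with 12.3 against 7.30 CPM (0.76, Epcam), and stellate cell and fibroblast markers 5 of 5 with 533 against 437 CPM (0.29, Dcn). T cell markers were 3 of 3 higher with 7.10 against 5.16 CPM (0.46, Cd3g), and neutrophil markers 3 of 3 with 13.6 against 10.7 CPM (0.34, with S100a8 most abundant with Gpnmb and S100a9 without). Lower were pericentral hepatocyte genes, 0 of 7 higher with 5253 against 6729 CPM (-0.36, Cyp2e1), and red blood cell genes, 0 of 3 higher with 785 against 1031 CPM (-0.39, Hbb-bs). Apart from Gpnmb, which is 0 without Gpnmb by the grouping, no marker was at 0 in either group of spots. In the NCD section only 26 spots held a Gpnmb UMI, 1 each, and the members' median log2 ratio there was 0.28, beside 0.04 for all genes, on 1746 member UMIs.

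Spots with a UMI of Clec4f, a lectin of Kupffer cells, served as the nearest comparison. Clec4f had a log2 ratio of -0.14 between HFD and NCD, while the Kupffer markers Timd4 and Marco had -3.17 and -3.20. Whether Clec4f marks the same cells in both sections was not tested. In the HFD section 1777 spots with Clec4f had a median depth of 21140 UMIs and 1817 without had 15614. The summed level of the members was 6951 CPM with Clec4f and 6545 CPM without (log2 ratio 0.09, 0.08 to 0.10), 0 of 36 members were past 1.5-fold higher, against 0.378% of all genes, and 0 lower, against 0.945%. Ctss had 111 and 85.4 CPM (0.38, 0.31 to 0.45), Lgmn 120.4 and 96.9 CPM (0.31, 0.25 to 0.38), Cd68 28.0 and 23.1 CPM (0.28, 0.15 to 0.42) and Ctsc 83.5 and 71.8 CPM (0.22, 0.14 to 0.29). In the NCD section, where 996 spots with Clec4f had a median of 12535.5 UMIs and 2696 without had 2551, 0 of 33 members were past 1.5-fold higher, against 0.0426% of all genes, and 0 lower, against 0.341%. The members' median was 0.09 in HFD and 0.04 in NCD, beside 0.03 and -0.06 for all genes. Among the 33 members that passed, the highest NCD ratios were those of Cd68 at 10.6 and 8.08 CPM (0.39, 0.03 to 0.75) and of Ctss at 43.7 and 36.0 CPM (0.28, 0.11 to 0.45). Cln3, below the minimum, had a ratio of 0.30 (-0.12 to 0.74).

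A direct comparison set the 433 HFD spots with Gpnmb and no Clec4f against the 1297 with Clec4f and no Gpnmb, at median depths of 21462 and 19576 UMIs. None of the 34 members that passed was 1.5-fold higher or lower, against 1.52% and 0.583% of all genes, and the median log2 ratio was 0.04, beside -0.00 for all genes. Of the 34 intervals, 19 held 0, 11 lay above 0 and 4 below, without a share of all genes to compare. Cd68 had 32.8 CPM in Gpnmb spots and 24.7 CPM in Clec4f spots (0.41, 0.21 to 0.60), Laptm5 had 40.2 and 32.7 CPM (0.30, 0.13 to 0.47), and Npc2 had 138 and 119 CPM (0.21, 0.12 to 0.30). On the Clec4f side were Ctsc with 72.5 and 83.8 CPM (-0.21, -0.33 to -0.09), Lipa with 174 and 194 CPM (-0.15, -0.23 to -0.08) and Ctsh with 243 and 262 CPM (-0.11, -0.18 to -0.04). Lgmn, higher in both kinds of spot than in the rest, had 111 and 110.9 CPM (0.00, -0.10 to 0.10). Ctsk leaned to Gpnmb with 3.67 and 1.68 CPM (1.13, 0.45 to 1.79), but on only 36 and 45 UMIs. Beside these values, the 6 markers of lipid-associated macrophages other than Gpnmb stood at 468 CPM in Gpnmb spots and 223 CPM in Clec4f spots (6 of 6 higher, Spp1 leading), pericentral hepatocyte genes stood at 4724 CPM in Gpnmb spots and 7386 CPM in Clec4f spots (0 of 7 higher, Cyp2e1 leading), and bile duct markers at 18.1 and 5.38 CPM (3 of 3 higher, Epcam leading), and their part was not tested.

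**Figure D3:**
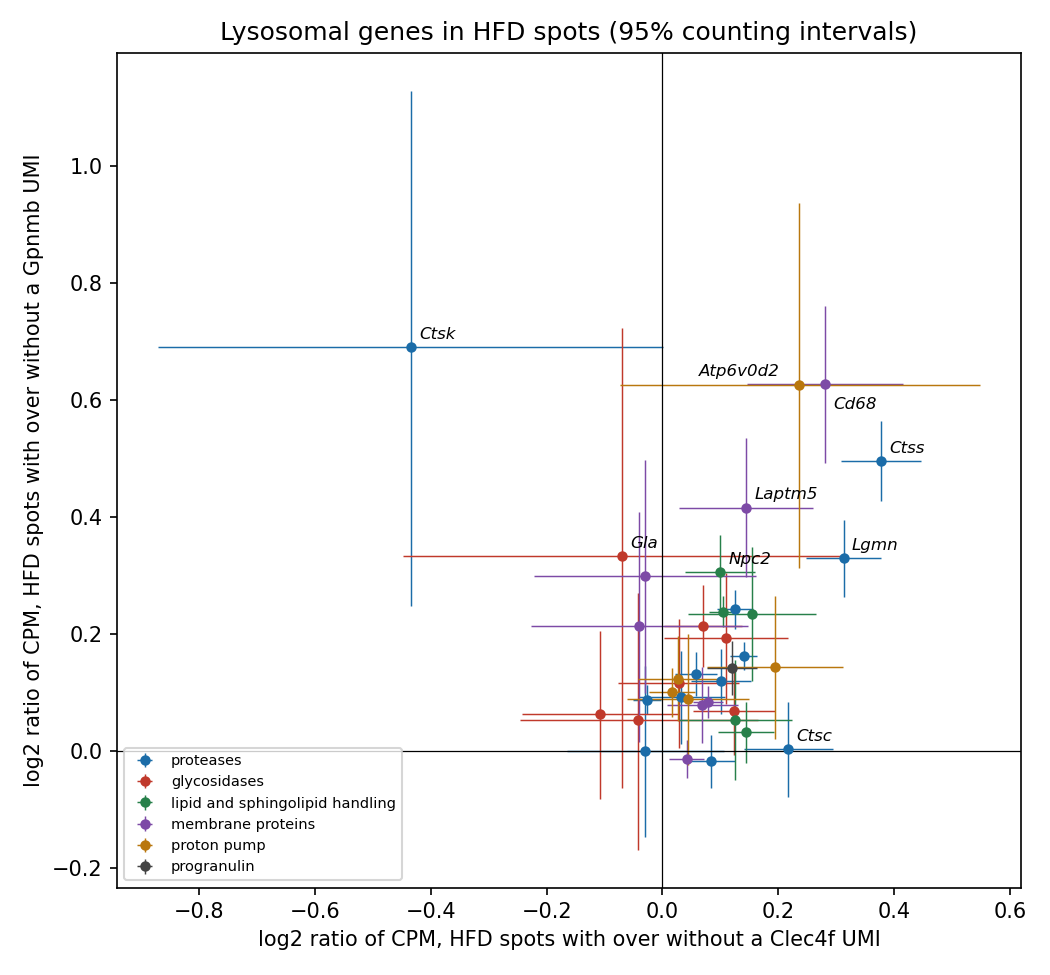
Log2 ratio of CPM of each of the 37 lysosomal genes in HFD spots with over without a Gpnmb UMI (y axis) and with over without a Clec4f UMI (x axis). Points are coloured by role, bars are 95% counting intervals, and both comparisons use spots of the same section; Cd68 lies at 0.63 and 0.28, Ctss at 0.50 and 0.38, Ctsc at 0.00 and 0.22, and Ctsk, below the minimum of 200 UMIs, at 0.69 and -0.43.

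Position in the lobule was read from hepatocyte genes of the pericentral and periportal zones, by which the spots of each section were ranked, divided into 3 equal parts and compared between the outer 2 parts. Of the 31 members that passed in NCD, 0 were past 1.5-fold higher in pericentral spots, against 6.43% of all genes, and 1 lower, against 2.01%. Of 35 in HFD, 0 were higher, against 4.1%, and 0 lower, against 3.02%. The median member ratio was 0.10 in NCD, beside a shift of 0.13 over all genes, and 0.08 in HFD, beside 0.08. Pericentral spots were deeper than periportal ones in NCD, with medians of 7783 and 4551.5 UMIs. In HFD they were shallower, with 17036.5 and 24683.5, and the part of depth in the zone ratios was not tested.

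Ctsc was the member past 1.5-fold, with 40.6 CPM (36.9 to 44.7) in pericentral and 100.9 CPM (93.8 to 108) in periportal spots of NCD (-1.31, -1.49 to -1.14). In the HFD section it had 61.4 and 91.2 CPM (-0.57, -0.67 to -0.48), so it was periportal in both. The acid lipase Lipa leaned the other way, with 151 and 115 CPM in NCD (0.39, 0.27 to 0.52) and 226 and 153 CPM in HFD (0.56, 0.50 to 0.62). Npc1 did likewise, with 57.3 and 45.4 CPM (0.34, 0.14 to 0.53) and 59.96 and 40.9 CPM (0.55, 0.44 to 0.66). The directions of Ctsc, Lipa and Npc1 hold relative to all genes. Atp6v0d2 did not pass the minimum in NCD, where it had 4.13 and 1.74 CPM (1.25, 0.33 to 2.27), and in HFD it had 5.49 and 4.05 CPM (0.44, 0.06 to 0.82). Lamp2 had 534 and 404 CPM in NCD (0.40, 0.34 to 0.47) and 531 and 482 CPM in HFD (0.14, 0.11 to 0.18), and Atp6v0d1 had 83.4 and 60.5 CPM (0.46, 0.30 to 0.63) and 98.3 and 93.1 CPM (0.08, -0.00 to 0.16), where the interval holds 0. Ctsl had 799 and 775 CPM in NCD (0.05, -0.00 to 0.09, an interval that holds 0), below the shift of all genes, and was higher in periportal spots of HFD with 687 and 846 CPM (-0.30, -0.33 to -0.27). Between the outer 2 of 10 equal parts of the HFD spots, Npc1 (0.80) and Lipa (0.78) were past 1.5-fold higher, against 9.3% of all genes, and Ctsc (-0.70) lower, against 4.04%, so the 3 calls among 32 members are no more than in genes in general. Markers of lipid-associated macrophages were lower in pericentral spots, with 51.3 against 161 CPM in NCD (1 of 7 higher, Fabp5 and Spp1 leading) and 196 against 456 CPM in HFD (1 of 7 higher, Spp1 leading), and their part in these ratios was not tested.

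Since most members were higher in HFD, their promoters were searched for the palindrome CACGTG, the core of the element that TFEB and its relatives bind, and for its longer forms TCACGTG and TCACGTGA. RefSeq windows of 250 bases before to 50 after the start of transcription (build GRCm38.p6) matched 31 of the 37 members by symbol, with 37 windows for these 31 since some genes have several starts, leaving Ctsb, Ctsh, Asah1, Npc1, Atp6v0d2 and Atp6v1b2. On either strand, CACGTG occurred in 13 of these 37 windows, each of another member, and in 7.15% of the 32851 windows of all genes. The 7 letters TCACGTG, which contain that core, occurred in 11 of the 37 windows and 3.77% of all windows, and the 8 letters TCACGTGA in 7 of the 37 windows and 0.974% of all windows. The 7 windows were those of Atp6v0d1, Atp6v1a, Cln3, Ctsa, Ctsd, Gla and Mcoln1. The median log2 ratio of HFD over NCD of these 7 genes was 0.80, with values from 0.22 to 0.94, beside 0.69 for the 24 members whose window lacked the 8 letters, with values from -0.10 to 1.46. A match of letters describes the window and is not a binding site, and a window without them says nothing of the factor.

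The stretches of 30 bases around the 8 letters, in capitals, are shown for 5 members in which the letters lie wholly before the RefSeq start, on the strand of the gene. They lie on chr7:142387908-142387937 (minus strand) for Ctsd, chrX:134601215-134601244 and chrX:134601182-134601211 (minus) for Gla, chr7:126583340-126583369 (minus) for Cln3, chr8:3500462-3500491 (plus) for Mcoln1 and chr16:44139373-44139402 (minus) for Atp6v1a. In the GENCODE M21 annotation, whose longest transcripts can start further upstream, the letters fall in an exon of Ctsd, Cln3 and Mcoln1, in an intron of Atp6v1a and outside the gene for Gla.
Ctsd, first capital at -99: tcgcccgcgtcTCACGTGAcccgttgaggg
Gla, first capital at -228: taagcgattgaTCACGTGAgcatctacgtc
Gla, first capital at -195: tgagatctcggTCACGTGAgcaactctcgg
Cln3, first capital at -122: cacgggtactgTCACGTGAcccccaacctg
Mcoln1, first capital at -46: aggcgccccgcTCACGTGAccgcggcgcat
Atp6v1a, first capital at -132: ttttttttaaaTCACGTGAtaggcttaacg

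In Ctsa the 8 letters occurred at -13 and at 5, and in Atp6v0d1 at -4. Of the genes printed, Ctsd, Gla, Cln3 and Atp6v1a had HFD ratios of 0.90, 0.94, 0.94 and 0.70, whereas Mcoln1 had 0.22, slightly below the shift of all genes. The members lie on many chromosomes of GRCm38, and a close pair is Ctsk (chr3:95499256-95509362) and Ctss (chr3:95526786-95556403), both on the plus strand. Ctsk and Ctss had HFD ratios of 1.20 and 1.31, and in spots with 4 or more Gpnmb UMIs Ctsk rested on 8 UMIs.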

How the data were processed

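The deposited values are raw UMI counts for each gene in each spot, which the authors did not normalize. Per the submitters' processing notes they come from Space Ranger 1.3.1 with the mm10 build. Tables of spots over tissue were used, and the tables of all barcodes served for spots off tissue. Positions and images were not used here. The sections shared 3173 spot barcodes, which are slide positions. Of 32285 gene identifiers, 32158 were found in GENCODE M21, as were all 37 members.

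UMIs were pooled per section or group of spots and scaled to CPM with exact Poisson 95% intervals, and log2 ratios had exact conditional binomial 95% intervals, with Python 3.11.15, numpy 2.4.6, scipy 1.17.1 and pandas 2.3.3 (figures: matplotlib 3.10.9). With 1 section per diet no test was run and no p-value is given. Members were counted past 1.5-fold in each direction among genes with at least 200 UMIs over the spots compared. Zones were the outer 2 of 3 equal parts of the spots with at least 1000 UMIs, ranked by the share of pericentral among pericentral plus periportal UMIs. Shares used spots drawn down to 1000 UMIs (seed 1). The calculation was tested on simulated counts.

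The members and lists were chosen with earlier results of these data known. The lists are the members by role, 59 other lysosomal genes, and markers of Kupffer cells, lipid-associated macrophages, monocytes, hepatocytes, endothelial cells, stellate cells and fibroblasts, neutrophils, T cells, B and plasma cells, red blood cells, bile duct, hematopoietic stem cells, all leukocytes and pericentral and periportal hepatocytes. Named genes were the members, up to 3 of the highest and up to 3 of the lowest of the other lysosomal genes in each of the HFD and Gpnmb comparisons, and the markers by list. Alternatives changed the total, centring, spot and gene minimum, depth, markers, zone width and fold. Chosen after seeing the data were the groups by number of Gpnmb UMIs, a minimum of 50 UMIs in the Gpnmb comparison and NCD spots with at least 10000 UMIs.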

Additional observations from a re-analysis of the deposited data

Results flagged for a closer look

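Grn and the pump subunit Atp6v1b2 had opposite signs in the 2 sections when spots with a Clec4f UMI were set against spots without. The log2 ratio of Atp6v1b2 was -0.29 (-0.56 to -0.03) in the NCD section and 0.19 (0.08 to 0.31) in the HFD section. For Grn it was -0.11 (-0.18 to -0.04) in the NCD section and 0.12 (0.08 to 0.16) in the HFD section. Both NCD intervals hold the shift of -0.06 over all genes in that comparison. The negative signs of Atp6v1b2 and Grn therefore do not stand apart from that shift. Npc2 had opposite signs between the zones, with a pericentral over periportal ratio of -0.17 (-0.33 to -0.00) in the NCD section and 0.0782 (0.01 to 0.15) in the HFD section. The HFD ratio of Npc2 was close to the shift over all genes in that comparison, so its sign does not stand apart from that shift. These 3 differences between the sections were not tested.

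Lysosomal UMIs were also found in spots that lie off tissue. Summed over the members, their level was 4796 CPM (4744 to 4848) beside the NCD section, close to the 4655 CPM over tissue, and 4675 CPM (4585 to 4767) beside the HFD section, below the 6767 CPM over tissue. The 1300 off-tissue spots of NCD had a median of 3383 UMIs, and the 1398 of HFD had 1175.5.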

How the results depend on the processing

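With 1 section per diet no section could be left out. No paired analysis was possible because the 2 diets share only replicate number 1. In the comparison of HFD with NCD, the number of members past 1.5-fold stayed between 15 and 24 under the alternatives, apart from 7 at 2-fold. Their median log2 ratio was 0.48 after centring on all genes and 0.56 with spots drawn down to 1000 UMIs, and otherwise between 0.64 and 0.79. For Gla, drawing down gave -0.11. In the Gpnmb comparison the 2 members past 1.5-fold became 5 with at least 2 Gpnmb UMIs per spot, 1 with the mean of CPM per spot, 1 with Mmp12 as the marker, 0 without the 1% of spots richest in Gpnmb and 0 at 2-fold. For Atp6v0d2, drawing down to 3000 UMIs gave -0.0165. In HFD spots without any of 6 macrophage genes the median against NCD was 0.44 in place of 0.66. With the outer 2 of 10 equal parts of HFD spots as zones the median was 0.19, with 2 members higher and 1 lower in place of 0 and 0. The causes were not tested, except that a stricter fold lowers a count by construction. Among alternatives of the medians and counts, 80 stayed within the limits set for them, 12 moved and 0 reversed, and for single genes 1386 stayed, 378 moved and 2 reversed, where reversed means that a gene past 1.5-fold took the other sign. Genes below 1.5-fold that took the other sign, such as Lamp2, Scarb2, Grn and Mcoln1 after centring and Ctsf after off-tissue subtraction, are not among the 2. Subtracting the off-tissue level gave no value for Ctsk and 0.75 for Ctsf. Depth limits the genes with few UMIs, and counting intervals leave out the spread between animals.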
